A study of Mus musculus with 6 samples.

Results

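Heat shock genes of 2 kinds were compared in condylar cartilage of control and mutant mice. The first set held 7 genes that encode small heat shock proteins and are strongly expressed in muscle (Hspb1, Hspb2, Hspb3, Hspb6, Hspb7, Hspb8 and Cryab). The second held 3 genes that are typically induced by heat and other stress (Hspa1a, Hspa1b and Dnajb1). These 10 genes were found by symbol among the 24346 genes of each library, and all 10 passed the filter on low values. Condylar cartilage caps the head of the lower jaw at its joint with the skull and adds to jaw growth. Control mice carried the label fl/fl, the usual notation for a gene flanked by sites for Cre recombinase, and in mutant mice Ihh, the gene for Indian hedgehog, was deleted in craniofacial neural crest cells. Tissue of both groups was dissected under a microscope, and each group had 3 libraries. The Cre driver, the age and the sex of the mice, and whether a library came from 1 animal or from several, were not stated in the labels. The p-values therefore measure the spread between these libraries, which may be partly technical.

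Small heat shock proteins are chaperones built around an alpha-crystallin domain. They bind unfolding proteins without using ATP and hold them until other chaperones act. Muscle fibres contain many of them, where they attach to the desmin and filamin scaffolds around the contractile filaments. Hsp70 proteins refold clients with ATP and with Hsp40 partners such as Dnajb1, and the inducible Hsp70 genes are classical targets of the heat shock factor Hsf1.

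Levels are in FPKM, which divides fragments by transcript length and by library depth, and where 3 values of a group are given they follow the replicate numbers 1, 2 and 3. Ihh measured 3.73, 2.51 and 3.74 FPKM in the control libraries and 2.18, 2.33 and 2.66 FPKM in the mutant libraries, so that the groups overlapped, and which part of the gene was deleted is not stated in the labels. Of 12 cartilage markers 11 were measured, with a mean of 4.82 to 5.17 in controls and 3.54 to 4.05 in mutants on the scale of log2(FPKM + 1), and 1 of them, Matn1, was at 0 in mutant 3. Skeletal muscle genes were also detected. All 20 skeletal muscle markers were above 0 in each library, and their summed level was 5270 to 13007 FPKM in controls and 21044 to 38161 FPKM in mutants. The X-inactivation transcript Xist was at 29.2 to 29.5 FPKM in controls 1 and 2 and below 1 FPKM in the other 4 libraries, so that sex was unequal between the groups. As a gauge of background, 1120 olfactory receptor genes, which serve smell, had a 90th percentile of 6.49 to 8.69 FPKM.

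All 7 small heat shock genes had a higher mean in mutants than in controls, with folds of mean FPKM from 1.52 to 4.56. Only Hspb7 passed the test over all genes, and it rose 4.56-fold. In 6 of the 7 genes all 3 mutant values lay above all 3 control values, the exception being Hspb3. The 3 stress-induced genes showed folds of 3.0 for Hspa1a, 1.26 for Hspa1b and 0.977 for Dnajb1, and 0 of 3 passed. The plot of levels by library shows all 10 genes.

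**Figure D1:**
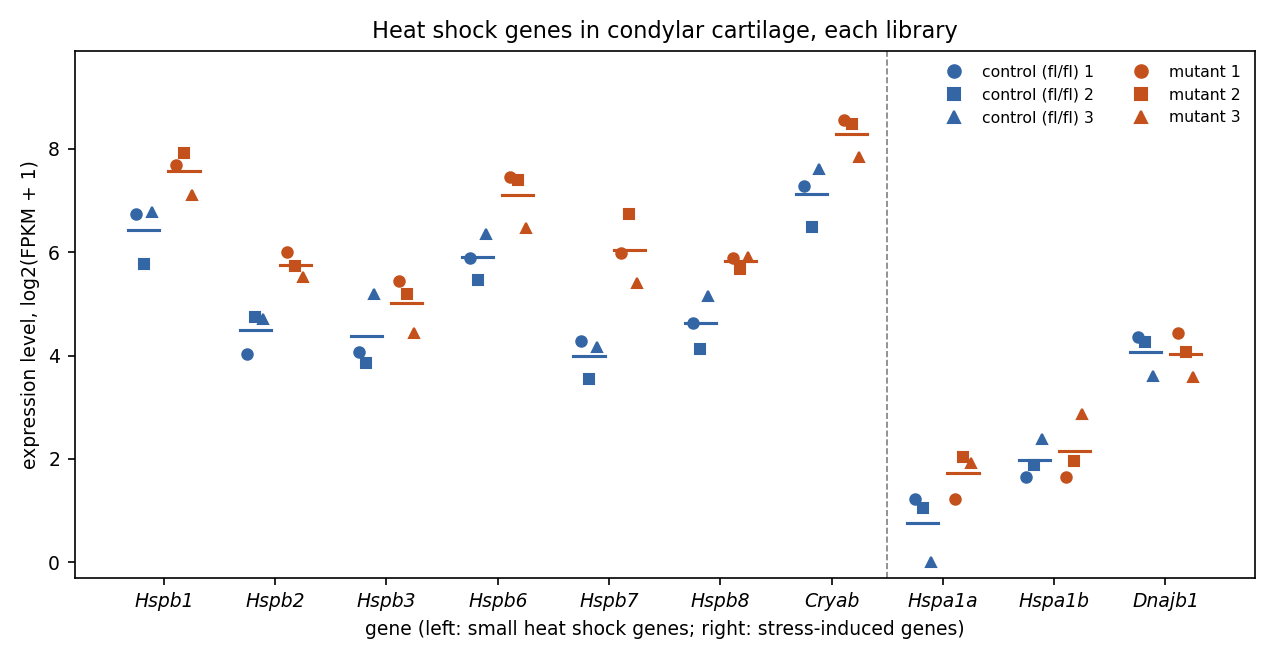
Level of each heat shock gene in each library, on the scale of log2(FPKM + 1), with 3 control libraries in blue and 3 mutant libraries in orange; a horizontal bar is the mean of a group. The small heat shock genes other than Hspb3 show mutants above controls, while Hspa1b and Dnajb1 overlap.

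Hspb7, a small heat shock protein of heart and skeletal muscle that binds filamin C, measured 18.5, 10.7 and 16.9 FPKM in the control libraries. In the mutant libraries it measured 62.6, 106 and 41.2 FPKM. Mutant 2 was the highest library and the groups did not overlap. The log2 fold change was 2.05 ± 0.34 (SE; limma adjusted p = 0.0331), and it was larger than that of 99.4% of the genes tested. The gene lies on chromosome 4 from 141420779 to 141425311 on the plus strand (mm10). Its call was lost without control 1, 2 or 3, mutant 1 or mutant 2 (limma adjusted p from 0.0576 to 0.118), with log2 fold changes from 1.70 to 2.19. It was kept without mutant 3, at 2.37 (limma adjusted p = 0.0116).

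Cryab, the alpha-B crystallin of lens and muscle, had the highest level of the 10 genes in each library. It measured 154, 88.4 and 194 FPKM in the control libraries and 374, 355 and 228 FPKM in the mutant libraries. Mutant 3 stood nearest to the controls, and the groups did not overlap. The fold of means was 2.19. On the log2(FPKM + 1) scale the fold change was 1.17 ± 0.31, which did not pass (SE; limma adjusted p = 0.118).

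Hspb1, known as Hsp25 in mice, protects the actin skeleton and is made in muscle, vessels and many stressed cells. It measured 106, 53.4 and 109 FPKM in the control libraries and 206, 242 and 137 FPKM in the mutant libraries. Control 2 was the lowest library and mutant 2 the highest. The log2 fold change was 1.14 ± 0.32 (SE; limma adjusted p = 0.132). Hspb6, or Hsp20, a regulator of muscle relaxation, measured 58.5, 43.3 and 80.5 FPKM in the control libraries and 175, 168 and 88.0 FPKM in the mutant libraries. Mutant 3 again lay close to control 3, and the log2 fold change was 1.21 ± 0.31 (SE; limma adjusted p = 0.110). Together Cryab, Hspb1 and Hspb6 made up 73.2% to 81.3% of the summed FPKM of the 7 small heat shock genes in the 6 libraries.

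Hspb2 forms complexes with Hspb3 in differentiating muscle, and Hspb8 works with the co-chaperone Bag3 to send damaged filament proteins to autophagy. Hspb2 measured 15.3, 25.9 and 25.1 FPKM in the control libraries and 63.1, 52.5 and 44.9 FPKM in the mutant libraries. Its log2 fold change of 1.26 ± 0.25 stood just outside the threshold (SE; limma adjusted p = 0.0506). Without mutant 3 it passed, at 1.38 (limma adjusted p = 0.0464). Hspb8 measured 23.8, 16.6 and 34.5 FPKM in the control libraries and 58.1, 50.1 and 59.1 FPKM in the mutant libraries. The 3 mutants were close together here, unlike for Hspb7, and the log2 fold change was 1.19 ± 0.26 (SE; limma adjusted p = 0.0682). It passed without control 3, at 1.44 (limma adjusted p = 0.0397), and Hspb6 passed without mutant 3, at 1.53 (limma adjusted p = 0.0310). No other omission of 1 library made any of the 3 genes pass. The limma adjusted p then went up to 0.163 for Hspb2, 0.196 for Hspb8 and 0.309 for Hspb6.

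Hspb3 was the small heat shock gene whose groups overlapped. It measured 15.8, 13.4 and 35.6 FPKM in the control libraries and 42.6, 35.4 and 20.7 FPKM in the mutant libraries. Control 3 lay above mutants 2 and 3, and the log2 fold change was 0.65 ± 0.38 (SE; limma adjusted p = 0.532). The spacing of the values fitted 13, 11 and 39 whole fragments for the controls and 35, 35 and 18 for the mutants. These are the smallest numbers that fit all 6 values, and intervals made from them cover counting error only. The ratio of mutant to control after scaling was 1.43 with an exact 95% interval from 1.02 to 2.005. With control 3 as the only control left, the log2 fold change turned to -0.17 (limma adjusted p = 0.946).

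Read against the background, 1 of 7 small heat shock genes was called higher in mutants, where 0.775% of the 18715 genes tested were. At an unadjusted p below 0.05 in limma there were 6 of 7, where 7.94% of all genes were higher in that way. Mutants lay wholly above controls in 6 of 7, where 9.77% of all genes did and 19.2% had groups apart in either direction. The median log2 fold change of the 7 genes was 1.19, beside 0.00 for all genes tested. The count of 1 became 0 without control 1, without control 2, without mutant 1 or without mutant 2, and 3 without mutant 3. Leaving out control 3 kept it at 1, with Hspb8 in place of Hspb7. It was 0 with both controls that express Xist left out, where the log2 fold change of Hspb7 was 1.88 (limma adjusted p = 0.369), that of Cryab 0.68 (limma adjusted p = 0.661) and that of Hspb8 0.67 (limma adjusted p = 0.553). With Xist as a covariate the count of 6 at an unadjusted p below 0.05 in limma became 3. In that fit 1900 of the 18715 genes tested reached such a p in either direction, beside 2630 without the covariate.

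**Figure D2:**
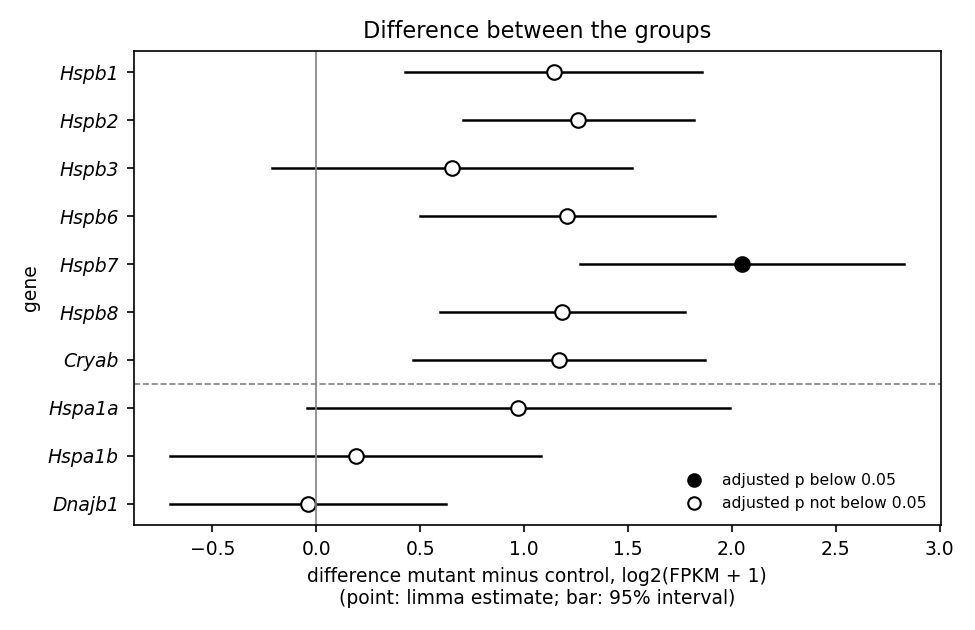
Difference between the mean of 3 mutant and 3 control libraries for each gene, as a limma estimate with its 95% interval on the scale of log2(FPKM + 1). The filled point, Hspb7, is the 1 gene with an adjusted p below 0.05, and the intervals of Hspb3, Hspa1a, Hspa1b and Dnajb1 include 0.

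The skeletal muscle markers moved with these values. Their mean on the scale of log2(FPKM + 1) was 7.04, 6.29 and 7.38 in the control libraries and 8.60, 8.83 and 7.996 in the mutant libraries. Of 20 markers 9 rose and 0 fell in limma, where 0.775% of all genes were called higher and 1.24% in either direction. At an unadjusted p below 0.05 in limma 16 were higher, where 7.94% of all genes were. The mean of the 7 small heat shock genes was 5.27, 4.86 and 5.71 in the control libraries and 6.72, 6.74 and 6.10 in the mutant libraries. Both means had the same order of libraries, from control 2 at the bottom through controls 1 and 3 and mutants 3 and 1 to mutant 2 at the top. In bulk tissue, more muscle cells and more RNA per muscle cell cannot be told apart. With the mean of the muscle markers as a covariate, 0 of 7 small heat shock genes passed, and 0 were higher at an unadjusted p below 0.05. In that fit 3 of 18715 genes were called. An unadjusted p below 0.05 in limma was reached by 1293 genes in either direction, beside 2630 without the covariate. All mutants lay above all controls in this covariate, so the fit can hardly separate it from group. The log2 fold change of Hspb7 was then 0.55 (limma adjusted p = 0.883), and those of Hspb1, Hspb3, Hspb6 and Cryab turned negative, from -1.02 to -0.26. That of Hspb8 was 0.45 (limma adjusted p = 0.908). Hspb2 differed from these, with a log2 fold change of 1.23 beside 1.26 without the covariate, and its SE went from 0.25 to 0.55 (limma adjusted p = 0.729).

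**Figure D3:**
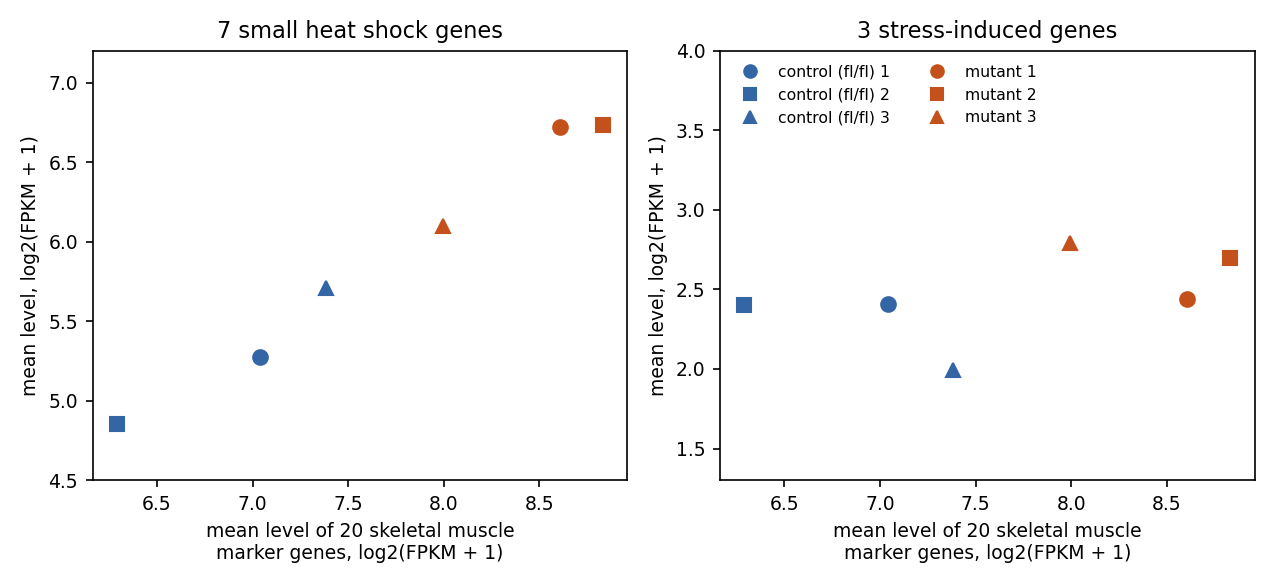
Mean level of the 7 small heat shock genes (left) and of the 3 stress-induced genes (right) in each library against the mean of 20 skeletal muscle markers, all on the scale of log2(FPKM + 1), controls in blue and mutants in orange. The small heat shock genes follow the muscle markers across the 6 libraries. The stress-induced genes span 1.996 to 2.41 in controls and 2.44 to 2.79 in mutants.

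Within each library, the level of a gene relative to the muscle markers was taken as its log2(FPKM + 1) minus the mean of the 20 markers. This difference was 0.19 to 0.23 for Cryab in controls and -0.36 to -0.05 in mutants, and the groups did not overlap. For Hspb1 it was -0.60 to -0.30 in controls and -0.91 to -0.89 in mutants. For Hspb7 it was -3.22 to -2.75 in controls and -2.61 to -2.09 in mutants. Relative to the muscle markers, Hspb7 was thus the 1 member with a higher mean in mutants, and the other 6 had a lower one. The summed FPKM of the 7 genes was 3.81% to 4.77% of that of the markers in controls and 2.64% to 2.94% in mutants.

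**Figure D4:**
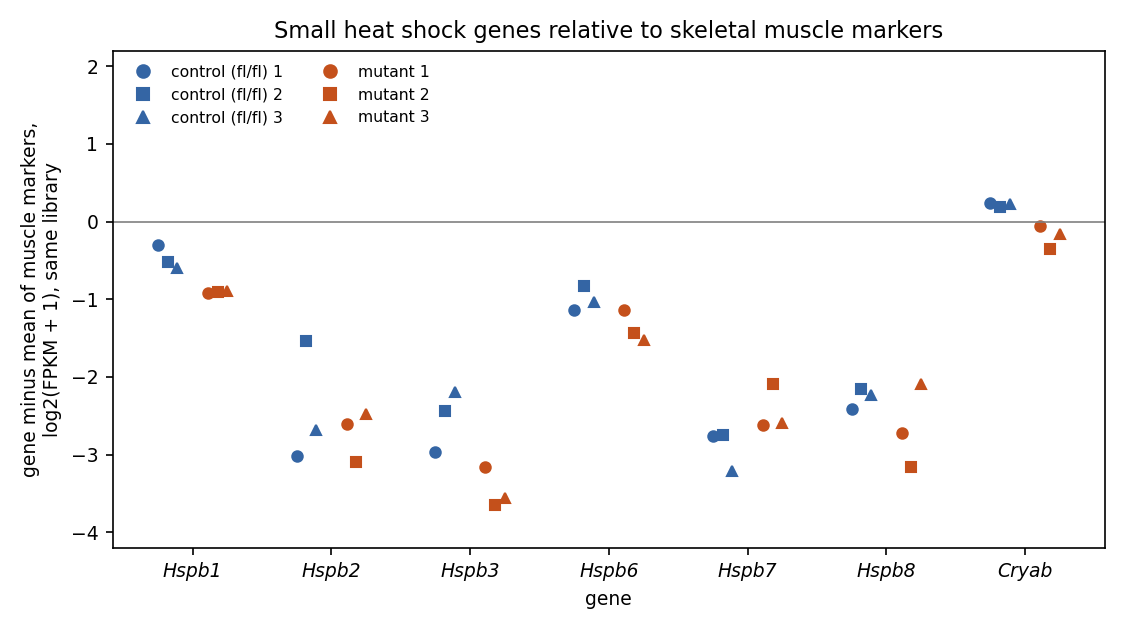
Level of each small heat shock gene minus the mean of 20 skeletal muscle markers in the same library, in units of log2(FPKM + 1), controls in blue and mutants in orange; 0 is the marker mean. Mutants lie above controls for Hspb7 and below them for Cryab, Hspb1 and Hspb3.

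As a description over 6 libraries that share the same group difference, the genes most like the mean of the 7 small heat shock genes, among 10241 compared, included Cox8b (Pearson r = 0.999), Cox6a2 (0.998), Aldoa (0.998) and Sepp1 (0.998). Cox8b and Cox6a2 encode muscle forms of cytochrome oxidase subunits. Cox8b measured 170, 81.1 and 343 FPKM in the control libraries and 1431, 1607 and 599 FPKM in the mutant libraries. For single members, r with the muscle marker mean was 0.986 for Cryab, 0.983 for Hspb1, 0.976 for Hspb6, 0.972 for Hspb7, 0.923 for Hspb8, 0.821 for Hspb2 and 0.805 for Hspb3.

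Small heat shock genes are also expressed in other cells. Of 10 smooth muscle and pericyte markers 8 were tested, 1 of which fell, Acta2, from 123 ± 4.67 to 58.8 ± 6.63 FPKM (mean ± SD, n = 3 per group; limma adjusted p = 0.0296). In limma 3 of the 8 were higher at an unadjusted p below 0.05 and 2 were lower, where 7.94% and 6.11% of all genes were. The 3 higher genes were the pericyte markers Rgs5 and Pdgfrb and the adhesion molecule Mcam, with folds of mean FPKM of 1.63, 1.57 and 1.73 and mutants wholly above controls (limma adjusted p = 0.213, 0.324 and 0.118). Beside Acta2 the lower gene was Cspg4, from the same markers, at 27.3 ± 5.24 and 14.4 ± 3.39 FPKM (mean ± SD in controls and mutants, n = 3 per group; limma adjusted p = 0.118). Of the 8, mutants lay wholly above controls in 3 and wholly below in 3. Over all genes 19.2% had groups apart in either direction. The mean of the 10 markers was 3.57 to 3.86 in controls and 3.68 to 3.84 in mutants on the scale of log2(FPKM + 1), and none was at 0. Markers of slow muscle fibres did not move together: of 9 tested 1 rose, Myoz2, from 15.0 ± 6.66 to 76.0 ± 32.5 FPKM (mean ± SD, n = 3 per group; limma adjusted p = 0.0462). Over all genes 0.775% were called higher. At an unadjusted p below 0.05 in limma 3 of the 9 were higher and 3 were lower, where 7.94% and 6.11% of all genes were. Besides Myoz2 the higher genes were Casq2, at 33.4 ± 14.5 and 81.9 ± 14.2 FPKM, and the slow troponin Tnnt1, at 23.7 ± 16.3 and 65.2 ± 26.8 FPKM (mean ± SD in controls and mutants, n = 3 per group; limma adjusted p = 0.099 and 0.162). Mutants lay wholly above controls for Myoz2, Casq2 and Tnnt1, beside 9.77% of all genes. The lower genes were the slow myosin light chain Myl2, at 16.4 ± 7.13 and 2.13 ± 1.85 FPKM, the slow troponin Tnnc1, at 10.7 ± 5.16 and 1.41 ± 2.44 FPKM, and the slow troponin Tnni1, at 32.3 ± 14.6 and 13.9 ± 5.02 FPKM (mean ± SD in controls and mutants, n = 3 per group; limma adjusted p = 0.05996, 0.0971 and 0.232). Mutants lay wholly below controls for Myl2 and Tnnc1 but not for Tnni1. The mean of the 9 markers was 3.50 to 4.31 in controls and 3.37 to 4.31 in mutants, and 2 of them were at 0 in mutant 2 and 1 in mutant 3. The endothelial gene Pecam1, chosen after its values were seen, measured 10.1, 10.3 and 22.02 FPKM in the control libraries and 46.1 to 49.9 FPKM in the mutant libraries. The part of these cells in the values of Hspb1, Hspb6 and Cryab was not tested.

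Hspb2 and Cryab lie head to head on chromosome 9. Hspb2 runs from 50751078 to 50752354 on the minus strand and Cryab from 50751325 to 50756636 on the plus strand (mm10, GENCODE M21), and 252 exon bases are shared. The libraries do not keep strand, so reads from the shared bases cannot be assigned to either gene. The others lie on chromosome 5 (Hspb1 from 135887919 to 135889563 on the plus strand and Hspb8 from 116408491 to 116422864 on the minus strand), chromosome 7 (Hspb6 from 30552178 to 30555443 on the plus strand) and chromosome 13 (Hspb3 from 113662896 to 113663676 on the minus strand). Exons of Hspb6 share 122 bases with Proser3 and 3 bases with Lin37 on the opposite strand. Proser3 measured 3.24 to 4.01 FPKM in controls and 1.54 to 3.40 FPKM in mutants, well below Hspb6.

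RefSeq promoter windows of GRCm38.p6, each from 250 bases before a gene's start to 50 after it, were found for 8 of the 10 genes. Those of the small heat shock genes that stood apart between the groups are printed to show which of them hold letters of a heat shock element, the site bound by Hsf1. Letters searched were GAANNTTC and TTCNNGAA, on both strands, and matches are in capitals. Imperfect forms and bases outside the windows were not searched, so a window without a match can still belong to a gene with such an element. Such a pair occurs in 15.1% of 32817 windows. The longer forms GAANNTTCNNGAA and TTCNNGAANNTTC, which contain the short ones, occur in 0.603% of windows and in 0 of these.
Hspb7: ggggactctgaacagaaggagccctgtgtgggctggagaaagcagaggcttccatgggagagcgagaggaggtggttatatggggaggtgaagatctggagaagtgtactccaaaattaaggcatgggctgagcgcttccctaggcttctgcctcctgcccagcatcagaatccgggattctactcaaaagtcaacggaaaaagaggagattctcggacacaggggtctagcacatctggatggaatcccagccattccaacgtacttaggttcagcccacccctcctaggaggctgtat
Hspb1: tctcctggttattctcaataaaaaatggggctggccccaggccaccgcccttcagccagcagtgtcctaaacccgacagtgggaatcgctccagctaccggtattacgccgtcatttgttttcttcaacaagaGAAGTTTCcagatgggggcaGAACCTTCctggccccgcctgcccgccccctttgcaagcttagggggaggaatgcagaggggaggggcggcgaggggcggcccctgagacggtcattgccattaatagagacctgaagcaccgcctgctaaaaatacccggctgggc
Hspb6: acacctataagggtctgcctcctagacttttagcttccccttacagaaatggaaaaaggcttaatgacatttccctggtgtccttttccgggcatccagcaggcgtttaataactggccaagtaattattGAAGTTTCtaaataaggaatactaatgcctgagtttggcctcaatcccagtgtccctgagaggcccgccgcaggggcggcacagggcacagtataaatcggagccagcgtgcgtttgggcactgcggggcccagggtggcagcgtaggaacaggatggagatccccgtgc
Hspb8: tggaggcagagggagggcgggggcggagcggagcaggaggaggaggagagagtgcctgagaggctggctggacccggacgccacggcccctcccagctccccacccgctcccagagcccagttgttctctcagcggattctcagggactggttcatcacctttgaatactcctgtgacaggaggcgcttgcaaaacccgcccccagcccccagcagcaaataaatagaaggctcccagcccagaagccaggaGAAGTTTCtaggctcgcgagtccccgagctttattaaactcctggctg
These windows are, in order, chr4:141420529-141420828 on the plus strand, chr5:135887669-135887968 on the plus strand, chr7:30553051-30553350 on the plus strand and chr5:116422815-116423114 on the minus strand. The window of Hspb7, the 1 gene called, had no match. Those of Hspb1, Hspb6 and Hspb8 each held the letters GAAGTTTC, which were singled out after the matches were seen and occur in 1.21% of all windows. In Hspb1 they began 117 bases before the start, with a second match 97 bases before it, and in Hspb6 120 bases before the start. In Hspb8 they began 2 bases after the start. A second window of Hspb6, at an earlier start, held no match, and Hspb3 had 1 match 224 bases before its start. E-box letters (CANNTG, the core bound by myogenic factors) occur in 72.3% of all windows. They were found in Hspb1, Hspb3, Hspb7, Hspb8 and the stress-induced gene Dnajb1, and not in Hspb6, Hspa1a or Hspa1b.

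The stress-induced genes Hspa1a and Hspa1b encode nearly the same Hsp70 protein. They lie on chromosome 17, Hspa1a from 34969190 to 34972156 and Hspa1b from 34956436 to 34959238, both on the minus strand (mm10). Their coding sequences had 99.4% identical bases, with 8 mismatches in 1923 aligned bases, and 82.3% of all stretches of 50 bases of Hspa1b occur in Hspa1a. The labels do not say how fragments that fit both were divided, so the split between the pair is uncertain. In addition, 564 exon bases of Hspa1a overlap Gm20481 on the opposite strand. The promoter windows, printed because they differ at only 4 of 300 bases, hold the same heat shock element letters 104 bases before the start.
Hspa1a: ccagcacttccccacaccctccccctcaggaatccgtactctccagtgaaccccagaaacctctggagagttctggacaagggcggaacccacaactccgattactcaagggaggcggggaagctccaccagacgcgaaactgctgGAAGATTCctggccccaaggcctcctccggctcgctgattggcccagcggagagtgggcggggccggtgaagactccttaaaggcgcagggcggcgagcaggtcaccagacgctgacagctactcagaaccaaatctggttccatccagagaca
Hspa1b: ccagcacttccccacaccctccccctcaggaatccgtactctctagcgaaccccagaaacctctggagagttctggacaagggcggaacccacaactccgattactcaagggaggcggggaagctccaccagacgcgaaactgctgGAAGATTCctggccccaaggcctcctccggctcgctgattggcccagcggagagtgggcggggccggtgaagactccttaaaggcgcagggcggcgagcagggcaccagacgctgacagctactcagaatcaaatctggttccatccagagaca
These windows are chr17:34972107-34972406 and chr17:34959189-34959488 on the minus strand, and capitals again mark GAANNTTC.

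Hspa1a measured 1.34, 1.08 and 0 FPKM in the control libraries and 1.35, 3.13 and 2.80 FPKM in the mutant libraries. By the same spacing these values were 5, 4 and 0 fragments for the controls and 5, 14 and 11 for the mutants. The 0 in control 3 allows up to 3 fragments, or 0.605 FPKM. Control 1 and mutant 1 thus held equal numbers of fragments, and the groups stood apart there only through the scaling. The ratio of mutant to control after scaling was 3.41 with an exact 95% interval from 1.58 to 8.16 for counting error only. The log2 fold change was 0.97 ± 0.45 (SE; limma adjusted p = 0.382). It was 2.10 with a pseudocount of 0.1, 1.73 with both controls that express Xist left out, 1.67 with Xist as a covariate and 1.81 with the muscle covariate, and did not pass in any of these (limma adjusted p from 0.381 to 0.793). In controls 1 and 2 and the mutants Hspa1a exceeded between 57.5% and 76.4% of the olfactory receptor genes.

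Hspa1b measured 2.14, 2.69 and 4.22 FPKM in the control libraries and 2.14, 2.89 and 6.34 FPKM in the mutant libraries. These values were 8, 10 and 21 fragments for the controls and 8, 13 and 25 for the mutants. Control 3, the library without Hspa1a fragments, had the second highest number for Hspa1b. The groups overlapped, and the log2 fold change was 0.19 with a 95% interval from -0.70 to 1.08 (limma adjusted p = 0.896). Summed over the pair, the level was 3.48, 3.77 and 4.22 FPKM in the control libraries and 3.49, 6.03 and 9.14 FPKM in the mutant libraries. Mutant 1 lay among the controls, so that the groups of the summed level overlapped. The ratio of summed fragments was 1.62 with an exact 95% interval from 1.11 to 2.37 for counting error only.

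Dnajb1, the Hsp40 partner that hands clients to Hsp70, was the most abundant of the stress-induced genes. It measured 19.4, 18.1 and 11.2 FPKM in the control libraries and 20.8, 15.9 and 10.9 FPKM in the mutant libraries. The lowest value of each group was near 11 FPKM and the highest near 20, and the groups overlapped throughout. The log2 fold change was -0.04 with a 95% interval from -0.70 to 0.63 (limma adjusted p = 0.976). It lies on chromosome 8 from 83608193 to 83612653 on the plus strand, and its promoter windows held no exact match to the heat shock element letters searched.

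In limma 0 of 3 stress-induced genes were called, and 0 of 3 reached an unadjusted p below 0.05, where 14.1% of all genes did in either direction. The mean of the 3 genes was 2.41, 2.40 and 1.996 in the control libraries and 2.44, 2.70 and 2.79 in the mutant libraries, on the scale of log2(FPKM + 1). All mutants thus lay above all controls in this mean, mutant 1 only narrowly. Hspa1b and Dnajb1 ran opposite to each other over the 6 libraries (Pearson r = -0.95), so that their values partly cancel in it. Their median log2 fold change was 0.19, beside 1.19 for the small heat shock genes. The intervals of Hspa1a and Hspa1b reach up to 1.99 and 1.08, so that changes of the size seen for Cryab were not excluded for Hspa1a at this number of libraries. They were not excluded for Hspa1b either, because this scale understates the change of low genes. With a pseudocount of 0.1 the log2 fold change of Hspa1b was 0.23 ± 0.49 (SE; limma adjusted p = 0.898). Over the 6 libraries the mean of the 3 genes was most like Gabrb1 (r = 0.982), Fam160b2 (0.981), Arl8a (0.978), Stard3 (0.975) and Reps1 (0.972), none of which is a chaperone gene.

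Other heat-inducible chaperones were compared with the same test. Of 18 such genes 0 were called, while at an unadjusted p below 0.05 in limma 1 was higher and 3 were lower, where 7.94% and 6.11% of all genes were. The 1 higher gene was Bag3, which is also on the list of muscle partners and is the co-chaperone that joins Hspb8 to Hsp70, at 18.4, 15.6 and 21.0 FPKM in the control libraries and 26.6, 36.7 and 30.7 FPKM in the mutant libraries (limma adjusted p = 0.139). Mutants lay wholly above controls in 1 of the 18, Bag3, and wholly below in 4, among them the 3 lower genes. Over all genes 9.77% had mutants above and 19.2% had groups apart in either direction. The 3 lower genes were Hsp90aa1, the inducible Hsp90, at 105 ± 8.01 and 63.9 ± 10.03 FPKM, Hsph1, a nucleotide exchange factor for Hsp70, at 13.4 ± 3.003 and 8.002 ± 1.36 FPKM, and the Hsp90 co-chaperone Ptges3, at 153 ± 14.4 and 112 ± 12.4 FPKM (mean ± SD in controls and mutants, n = 3 per group). Their limma adjusted p was 0.104, 0.261 and 0.284. The median log2 fold change of the 18 genes was -0.06, and the most abundant of them, the constitutive Hsp70 gene Hspa8, measured 546 to 614 FPKM in controls and 480 to 557 FPKM in mutants.

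Of 5 heat shock factor genes 4 were tested and 0 were called. None reached an unadjusted p below 0.05 in limma, where 7.94% of all genes were higher and 6.11% lower in that way. Hsf1, the main activator of the heat shock response, measured 20.9 ± 2.69 and 21.1 ± 2.09 FPKM (mean ± SD in controls and mutants, n = 3 per group). Of 18 further Hsp70 and Hsp40 genes 0 were called, and 3 were higher and 0 lower at an unadjusted p below 0.05 in limma, with the same shares over all genes. The smallest p belonged to Dnaja4, an Hsp40 gene, at 13.2, 5.51 and 8.03 FPKM in the control libraries and 22.2, 27.3 and 19.3 FPKM in the mutant libraries (limma adjusted p = 0.0724). Dnajb2, an Hsp40 gene strong in neurons and muscle, measured 6.79 ± 3.40 and 12.9 ± 0.262 FPKM (mean ± SD in controls and mutants, n = 3 per group; limma adjusted p = 0.215). The small heat shock genes outside the set were low, with Cryaa at 0 to 2.28 FPKM, Hspb9 at 1.34 to 8.92 FPKM and Odf1 at 3.11 to 10.1 FPKM. In limma 0 of the 2 tested were called, and 1, Hspb9, was higher at an unadjusted p below 0.05, where 7.94% of all genes were.

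Of 11 genes that work with small heat shock proteins in muscle, 2 rose and 0 fell, where 0.775% of all genes were called higher. At an unadjusted p below 0.05 in limma 10 of the 11 were higher, beside 7.94% of all genes. Des, the intermediate filament protein that Cryab binds, rose from 52.8 ± 13.6 to 255 ± 76.6 FPKM, and Actn2, the alpha-actinin of the Z-disc, from 60.7 ± 23.0 to 226 ± 79.4 FPKM (mean ± SD, n = 3 per group; limma adjusted p = 0.0157 and 0.0418). Unc45b, a myosin chaperone, measured 5.62, 5.03 and 8.60 FPKM in the control libraries and 16.05, 20.3 and 14.2 FPKM in the mutant libraries (limma adjusted p = 0.0543). Klhl41, a sarcomere-associated kelch protein, measured 25.4 ± 6.998 and 63.2 ± 14.8 FPKM (mean ± SD in controls and mutants, n = 3 per group; limma adjusted p = 0.0587). The exception was Stub1, the ubiquitin ligase Chip that is present in most tissues, at 105 to 135 FPKM in controls and 99.6 to 126 FPKM in mutants. The count of 2 became 0 without control 1, control 2, mutant 1 or mutant 2 and 5 without mutant 3.

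**Figure D5:**
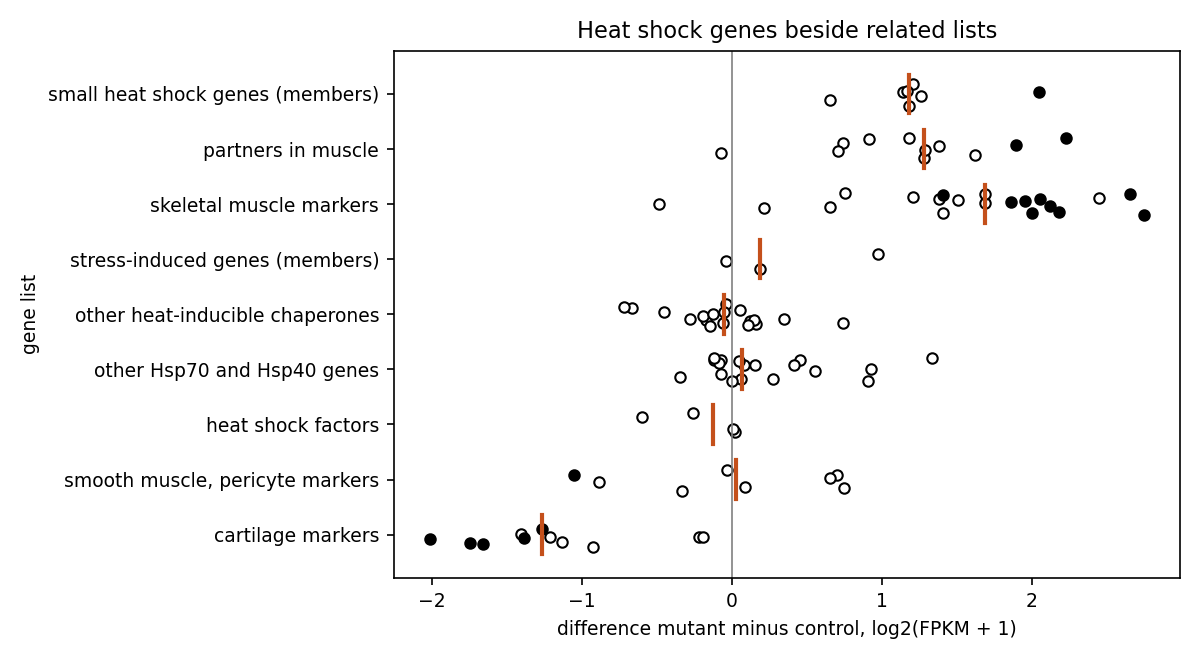
Difference between mutants and controls (limma estimate on the scale of log2(FPKM + 1)) for each tested gene of the heat shock sets and of related lists; filled points have an adjusted p below 0.05 and orange bars are list medians. The median is 1.19 for the small heat shock genes, 1.28 for their muscle partners, of which Stub1 lies below 0, and 1.69 for the muscle markers, of which Myh3 lies below 0. It is 0.19 for the stress-induced genes, -0.06 for the other heat-inducible chaperones and 0.07 for the other Hsp70 and Hsp40 genes, with Hspa1a at 0.97 and Dnaja4 at 1.33.

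Genes that respond within minutes to handling were looked at because dissection can also induce Hsp70 genes. Of 12 such genes 11 were tested and 0 were called, with 5 higher and 0 lower at an unadjusted p below 0.05 in limma, where 7.94% and 6.11% of all genes were. The smallest p belonged to Dusp1, a phosphatase, at 25.3 ± 5.54 and 59.8 ± 17.9 FPKM in controls and mutants (mean ± SD, n = 3 per group, also below). Next came Ier2, at 11.0 ± 3.16 and 21.9 ± 4.33 FPKM, Zfp36, at 6.385 ± 0.588 and 13.1 ± 3.69 FPKM, and Egr1, at 13.4 ± 4.32 and 23.1 ± 4.22 FPKM. Mutants lay wholly above controls in these 4 and wholly below in 0 of the 11, where 9.77% of all genes had mutants above. For Fos, the classical early gene, the groups overlapped, at 18.97 ± 5.44 and 15.9 ± 9.87 FPKM. The mean of the 12 genes was 3.33 to 3.50 in controls and 3.52 to 4.24 in mutants on the scale of log2(FPKM + 1), highest in mutant 2. Mutant 3, which had the highest summed level of Hspa1a and Hspa1b, stood at 3.52. The part of handling in these values was not tested.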

How the data were processed

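Per the labels' protocols, miRNeasy columns gave total RNA of condylar cartilage, SMART-Seq HT gave full-length cDNA and Nextera the libraries, which do not keep strand. The authors deposited 1 table per library with values taken here as FPKM. The headers name no unit, and FPKM was inferred from the values and the use of Cufflinks. Per the submitters' processing notes, the tools were Cufflinks 2.2.1, SAMtools 0.1.19, TopHat2 2.0.13 and Bowtie2 2.2.3, on the build mm10. Neither settings nor annotation are stated there.

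Libraries were grouped by their titles. A gene was tested if 3 or more libraries reached 1 FPKM (18715 genes). The test was limma 3.58.1 under R 4.3.3 on log2(FPKM + 1), with a trend, robust moderation, group as the only term, Benjamini-Hochberg adjustment over all of them and a threshold of 0.05. A log2 fold change on this scale understates the change of low genes. A rule named all 10 members, up to 4 genes of each related list with the smallest p, and the 5 genes most like each set in pattern. Not all genes it took are reported. Hspa8, Stub1, Fos, Matn1, Proser3, Myh3, Pdgfrb, Tnni1 and Tnnt1 were chosen after their values were seen. Members and lists were chosen with earlier results of these data known. Total depth is unknown. From the steps between low values, totals of the libraries were 0.993 to 1.33 relative to control 1, and whole fragments were searched up to 40 in the top library within 0.1 of a fragment. Reads without molecular identifiers are not independent molecules. The test was checked on simulated data. Alternatives were other scalings, filters, weights, moderation and pseudocount, the replicate number as a block, Xist or the muscle markers as covariates, and leaving out libraries.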

Additional observations from a re-analysis of the deposited data

How the results depend on the processing

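The number of genes called over all genes tested was 232, with 145 higher and 87 lower in mutants. It became 411 with quantile normalization, 133 without a filter, 440 with a filter at 5 FPKM, 5 with both Xist-expressing controls left out, 2 with the Xist covariate, 3 with the muscle covariate and 13 to 414 when 1 library was left out. The number of small heat shock genes called was 3 with quantile normalization or a filter at 5 FPKM, 2 with array weights, 0 with those controls left out or with either covariate, and 0 to 3 when 1 library was left out. The stress-induced genes had 0 calls in all these settings. The labels do not say whether the replicate numbers pair the libraries. Deviations of same-numbered libraries from their group means had correlations of -0.02 to 0.01, beside -0.01 to 0.02 for differently numbered ones. A shared litter or day was not tested. With the replicate block 2 genes and 0 small heat shock genes were called, with Hspb7 at an adjusted p of 0.0936. Of 168 log2 fold changes of members under alternatives 14 turned sign. With both Xist-expressing controls left out they were -0.17 for Hspb3, -0.22 for Hspa1b and 0.43 for Dnajb1, and with the Xist covariate -0.11, -0.23 and 0.43. With the muscle covariate they were -0.41 for Hspb1, -1.02 for Hspb3, -0.26 for Hspb6 and -0.35 for Cryab, while Hspb2 stayed at 1.23. Leaving out 1 library gave -0.27 to 0.19 for Dnajb1 and -0.17 to 0.45 for Hspa1b. Neither Hspa1a nor Hspa1b was tested with a filter at 5 FPKM. The causes were not tested. With 3 libraries per group, log2 fold changes of 0.65 to 1.26 in the other small heat shock genes did not pass.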
